A study of Mus musculus with 96 samples.

Results

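The insulin signalling and FoxO genes described here are Insr, Igf1r, Irs1, Irs2, Pik3r1, Akt1, Akt2, Grb10, Foxo1 and Foxo3. They were taken by gene name from the table of read counts, and all 10 names were found among its 56748 genes. Insulin and insulin-like growth factor bind receptor tyrosine kinases at the cell surface, which phosphorylate docking proteins that recruit phosphoinositide 3-kinase and, through it, activate the AKT kinases. AKT phosphorylates FoxO transcription factors and keeps them out of the nucleus, so in the fasted state, when insulin is low, FoxO factors act on their target genes. In liver these include genes of glucose production, and in muscle genes of protein breakdown.

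Poly-A RNA of liver, skeletal muscle and cerebral cortex was sequenced from mice fed ad libitum (AL) or kept on intermittent fasting (IF). Mice 1-16 are labelled male, with mice 1 to 8 as AL and 9 to 16 as IF, and mice 25-40 are labelled female, with mice 25 to 32 as AL and 33 to 40 as IF. The sources used here describe the regimen for male C57BL/6 mice: food was withheld for 16 h of each day for 4 months, from 6 weeks of age, and IF mice were taken at the end of a fasting window. The fast ran from the afternoon to the next morning, so these IF mice had food in the light phase only. In these mice the last fast, the hours of feeding and the 4 months of the regimen cannot be told apart. Mice 25-40 carry the same AL and IF labels, and their strain, age, hours of fasting and time of sampling were not given in the sources used here. Each tissue and mouse set holds 8 AL and 8 IF mice, apart from cortex of mice 1-16 with 7 AL mice. Mouse set, sex and any batch that goes with them cannot be told apart.

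The 95 libraries used held between 26097314 and 49838004 counted reads. Levels are given as CPM, the raw read count of a gene scaled to the total of its library. Ranges over these libraries are given as lowest to highest mouse. The markers of each tissue summed highest in their own tissue: the 6 liver genes, led by Alb, summed to 54427 to 80159 CPM (median 59788) in AL liver of mice 1-16. The 6 muscle genes, led by Acta1, summed to 136584 to 145497 CPM (median 139089) in AL muscle, and the 6 cortex genes, led by Camk2a, to 9012 to 10857 CPM (median 9900.2) in AL cortex of the same set. Some were also found elsewhere: in AL mice 1-16 the cortex genes summed to 387 to 475 CPM (median 410.0) in muscle, led by Camk2a, the muscle genes to 73.8 to 133 CPM (median 123) in cortex, led by Pvalb, and the liver genes to 5.54 to 3105 CPM (median 30.6) in cortex, led by Ttr. Xist and Ddx3y went with the labelled sex in 95 of 95 libraries. The cortex library of AL mouse 1 was left out. It is labelled male and held 213 CPM of Xist and no count of Ddx3y. Its Foxo1 level was 9.89 CPM, below the 11.4 to 31.8 CPM of the other 15 cortex libraries of mice 1-16, and its Irs2 level of 29.3 CPM was below their 31.4 to 73.9 CPM. Both lay inside the ranges of the 16 cortex libraries labelled female, 8.997 to 20.7 CPM and 23.6 to 48.8 CPM. Its other 8 values were inside the ranges of those of mice 1-16.

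Where each gene stood without fasting is shown by the AL mice. Each tissue had its own set of leading genes: Insr was highest in liver, Irs1 and Akt2 in muscle, and Irs2, Igf1r, Pik3r1, Akt1 and Foxo3 in cortex, by mean CPM in both mouse sets. A difference was called when its p, from the quasi-likelihood (QL) test of edgeR and adjusted over all genes tested by Benjamini and Hochberg (BH), was under 0.05. Between liver and muscle all 10 genes were called in mice 1-16 and all 10 in mice 25-40, where 77.9% and 78.5% of all genes tested were called. For liver against cortex these were 9 genes in mice 1-16 and 7 in mice 25-40, beside 83.1% and 83.9% of all genes, and for muscle against cortex 9 and 9, beside 78.9% and 79.5%. These shares are close to those of all genes, so that the genes described here differ between tissues is not particular to them. Scaling also bears on these contrasts: with library totals alone in place of TMM factors, a scaling chosen after seeing the data, the median of all genes moved by -0.78 (log2) for liver against cortex, -1.003 for muscle against cortex and 0.22 for liver against muscle in mice 1-16. The same shifts were -0.60, -0.87 and 0.27 in mice 25-40. Calls changed with them: in mice 1-16 Irs1 in liver against cortex went from 1.03 ± 0.37 and called to 0.23 with BH-adjusted p = 0.572 by edgeR QL. Foxo3 in the same contrast went from -0.027 ± 0.11 and not called to -0.82 with BH-adjusted p = 5.75e-10 by edgeR QL. Foxo1 in muscle against cortex went from -0.0098 ± 0.19 and not called to -1.02 with BH-adjusted p = 4.27e-06 by edgeR QL.

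The insulin receptor Insr ranged over 74.6 to 109 CPM (median 86.3) in AL liver of mice 1-16, 32.5 to 45.4 CPM (median 36.8) in muscle and 29.9 to 35.03 CPM (median 31.7) in cortex. Liver stood above both other tissues in every mouse, while muscle and cortex overlapped in CPM. The log2 level of liver against muscle was 1.05 ± 0.072 (SE; BH-adjusted p = 2.07e-18, edgeR QL). Its relative Igf1r, which binds insulin-like growth factor, had the opposite order, with 1.47 to 4.98 CPM (median 2.12) in liver, 5.93 to 7.83 CPM (median 6.97) in muscle and 35.1 to 54.6 CPM (median 46.5) in cortex. No tissue overlapped another for this receptor, and liver held least. Liver against cortex was -3.42 ± 0.19 (BH-adjusted p = 7.16e-22, edgeR QL).

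The docking protein Irs1 was low outside muscle, at 0.360 to 2.02 CPM (median 0.849) in liver and 0.318 to 1.90 CPM (median 0.761) in cortex against 5.70 to 16.7 CPM (median 8.82) in muscle of AL mice 1-16. Every muscle library lay above every liver and cortex library, and those of liver and cortex overlapped. The second docking protein, Irs2, had 3.82 to 12.3 CPM (median 8.21) in liver, 8.26 to 17.9 CPM (median 12.6) in muscle and 31.4 to 73.9 CPM (median 44.03) in cortex. Cortex was highest in every mouse, and liver and muscle overlapped. Pik3r1, the regulatory subunit of phosphoinositide 3-kinase, stood at 12.9 to 21.97 CPM (median 16.6) in muscle, 22.5 to 34.3 CPM (median 23.8) in liver and 74.6 to 93.7 CPM (median 80.4) in cortex, without overlap.

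The kinases parted by tissue. Akt1, the widely expressed form, had 25.5 to 47.4 CPM (median 31.8) in liver, 54.3 to 71.8 CPM (median 61.1) in muscle and 200.4 to 238 CPM (median 216) in cortex of AL mice 1-16. Akt2, the form known for glucose uptake under insulin, had 49.3 to 74.1 CPM (median 58.4) in liver, 284 to 310.1 CPM (median 298) in muscle and 109.8 to 161 CPM (median 131) in cortex. Neither kinase overlapped between any tissues, and the order of muscle and cortex was opposite for the kinases. Per kilobase of gene length, the ratio of Akt1 to Akt2 was 2.43 to 3.39 (median 2.79) in cortex, 0.796 to 1.11 (median 0.916) in liver and 0.324 to 0.424 (median 0.349) in muscle. Every AL cortex of the set held more Akt1 than Akt2, every AL muscle less, and the livers lay to both sides of an equal level.

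Grb10, an adaptor that binds the insulin receptor and restrains its signal, was low in liver at 1.90 to 4.30 CPM (median 3.04) and higher in muscle at 14.7 to 21.1 CPM (median 17.4) and cortex at 22.1 to 28.3 CPM (median 25.2) of AL mice 1-16. In AL mice 25-40 its muscle level was 28.4 to 43.9 CPM (median 34.98) and its cortex level 21.7 to 27.5 CPM (median 24.7), so that muscle stood above cortex in CPM there and below it in mice 1-16. The TMM-scaled level of muscle against cortex was 0.47 ± 0.14 in mice 1-16 and turned to -0.54 with library totals alone. Foxo1 ranged over 8.07 to 15.4 CPM (median 14.4) in liver, 7.40 to 10.8 CPM (median 8.24) in muscle and 11.4 to 26.2 CPM (median 17.01) in cortex of mice 1-16. Neighbouring tissues overlapped, and its order turned with the scaling: liver against cortex was 0.44 ± 0.18 with TMM and -0.36 with BH-adjusted p = 0.0741 by edgeR QL with library totals. Foxo3 had 25.2 to 37.4 CPM (median 29.5) in liver, 11.3 to 14.5 CPM (median 12.5) in muscle and 42.4 to 62.3 CPM (median 52.5) in cortex. Muscle was lowest in every mouse of the set.

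In AL mice 25-40 the order of the tissues by mean CPM was that of mice 1-16 for 8 genes, and differed for Grb10 and Foxo1. Akt1 and Pik3r1 overlapped between liver and muscle in this set and Foxo3 between cortex and liver, which they did not in mice 1-16, while Insr no longer overlapped between muscle and cortex. Irs1 had 5.20 to 15.7 CPM (median 12.1) in muscle against 0.449 to 1.56 CPM (median 0.767) in liver, and Akt2 288 to 321 CPM (median 304) in muscle against 72.1 to 101 CPM (median 92.7) in liver. These ranges did not overlap. Liver against cortex was not called in this set for Irs1 (BH-adjusted p = 0.0818), Akt2 (0.129) and Foxo3 (0.0794, edgeR QL), and with library totals alone the directions turned for Irs1 and for Foxo3, which was then called at -0.41 with BH-adjusted p = 0.000340 by edgeR QL. Foxo1 in muscle against cortex, called at 0.72 ± 0.14, turned with library totals alone to -0.15 with BH-adjusted p = 0.318 by edgeR QL. Irs2 in muscle against cortex was not called either (BH-adjusted p = 0.479, edgeR QL). The scaling decides here: with library totals alone Akt2 in liver against cortex was called at -0.72 with BH-adjusted p = 4.96e-14 by edgeR QL, and Irs2 in muscle against cortex at -0.99 with BH-adjusted p = 1.45e-07 by edgeR QL, and the CPM of neither overlapped between those tissues. In liver against muscle Irs2 (-0.11 with BH-adjusted p = 0.526 by edgeR QL) and Akt1 (-0.12 with BH-adjusted p = 0.302 by edgeR QL) were not called with library totals alone. Pik3r1 in liver against muscle was called at 0.27 ± 0.12. With the mouse as a block it stood at 0.26 and was not called (BH-adjusted p = 0.0507, edgeR QL).

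**Figure D1:**
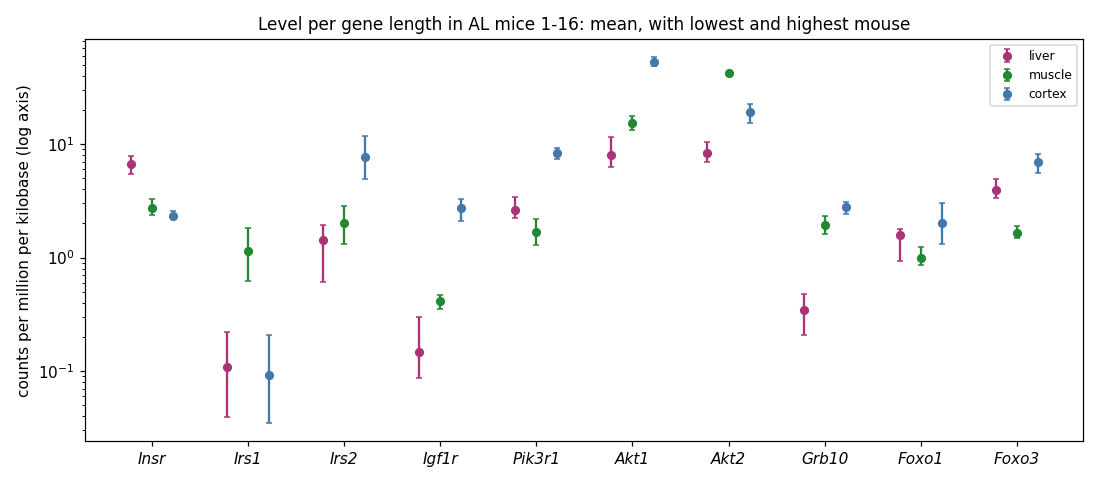
Mean level of each gene in AL mice 1-16, in CPM per kilobase of gene length on a log axis, for liver, muscle and cortex, with bars from the lowest to the highest mouse (8 mice in liver and muscle, 7 in cortex). Akt1 in cortex had the highest mean, 53.2 ± 3.30 CPM per kilobase (SD), and Irs1 in cortex the lowest, 0.0922 ± 0.0565.

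Whether fasting moved these genes was asked first in liver of mice 1-16. The forkhead factor Foxo1 was higher in IF than in AL liver by a ratio of mean CPM of 3.18, without overlap of any mouse (8 in each diet), and the kinases Akt1 and Akt2, the growth factor receptor Igf1r, the adaptor Grb10 and the factor Foxo3 were also higher. The receptor Insr and the kinase subunit Pik3r1 were lower, and the docking proteins Irs1 and Irs2 were not called. In all, 8 of 10 genes were called, 6 of them higher, beside 44.6% of the 16204 genes tested, of which 3815 were higher and 3419 lower. Their median log2 fold change, IF over AL, was 0.54 against 0.06 over all genes tested.

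Markers of other cells moved with diet in the same libraries. The 5 erythrocyte genes, all above 1 CPM with Hba-a1 the most abundant, summed to 362 to 956 CPM (median 569) in AL and 667 to 6879 CPM (median 2070.4) in IF liver. IF mice 9, 10, 13, 14 and 16 were those above 1500 CPM. The 5 endothelial genes, led by Robo4 and all above 1 CPM, summed to 62.7 to 89.3 CPM (median 71.1) in AL and 93.8 to 183 CPM (median 114) in IF liver, with no overlap. The 5 fibroblast genes, led by Dcn, summed to 67.7 to 123 CPM (median 92.8) and 101 to 185 CPM (median 129), and the 4 cholangiocyte genes, led by Spp1, to 42.99 to 124 CPM (median 61.997) and 67.7 to 163 CPM (median 91.1). The 5 leukocyte and macrophage genes, led by Csf1r, summed to 40.6 to 69.4 CPM (median 46.6) in AL and 42.6 to 142 CPM (median 48.6) in IF liver. No gene of these lists was at 0. The 5 adipocyte genes, of which 2 in AL and 1 in IF liver were above 1 CPM, moved the other way, from 22.8 to 38.1 CPM (median 30.6), led by Cfd, to 9.67 to 22.8 CPM (median 14.8), led by Fabp4, with no overlap and Lep at 0 in IF liver. In bulk tissue, fewer cells of a type and less RNA per cell cannot be told apart.

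With the erythrocyte list as a covariate, 4 of the 10 genes were called in liver of mice 1-16, and with the endothelial list, a covariate chosen after seeing the data, also 4. In both fits these were Akt1, Akt2, Foxo1 and Foxo3, beside 24.7% and 25.3% of all genes tested. Without the 5 IF libraries above 1500 CPM of erythrocyte genes, which leaves 3 IF mice and was also chosen after seeing the data, 5 were called, the same 4 and Pik3r1, beside 29% of all genes. Each covariate itself differed between the diets, and the part of these cells in the other 4 genes was not tested beyond these fits.

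Insr stood at 74.6 to 109 CPM (median 86.3) in AL and 69.7 to 91.6 CPM (median 80.8) in IF mice. The ranges overlapped, with 1 IF mouse below every AL mouse. The log2 fold change was -0.26 ± 0.09 (BH-adjusted p = 0.0202, edgeR QL), and it was not called with the erythrocyte list (-0.15, BH-adjusted p = 0.437, edgeR QL), the endothelial list (-0.20, BH-adjusted p = 0.298) or library totals alone (-0.17, BH-adjusted p = 0.160), nor without the 5 IF libraries (-0.19, BH-adjusted p = 0.260). Igf1r was far scarcer, at 1.47 to 4.98 CPM (median 2.12) in AL and 1.61 to 8.96 CPM (median 4.67) in IF mice. The 8 AL mice lay low apart from mouse 2, the highest, and 4 IF mice exceeded it. IF over AL was 0.81 ± 0.27 on the log2 scale (BH-adjusted p = 0.0166, edgeR QL), 0.998 without AL mouse 2, and 0.081 (BH-adjusted p = 0.909, edgeR QL) with the endothelial list. With the erythrocyte list Igf1r was not called (0.57, BH-adjusted p = 0.277, edgeR QL), nor without the 5 IF libraries, where the fold change stayed near its size (0.76, BH-adjusted p = 0.0698, edgeR QL).

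Of the docking proteins, Irs1 had 0.360 to 2.02 CPM (median 0.849) in AL and 0.252 to 1.86 CPM (median 0.670) in IF mice. Irs2 had 3.82 to 12.3 CPM (median 8.21) in AL and 4.79 to 18.3 CPM (median 10.5) in IF mice. Most mice of the diets overlapped, with 3 IF mice above every AL mouse for Irs2 and none for Irs1. The log2 fold changes were -0.33 ± 0.44 for Irs1 and 0.27 ± 0.23 for Irs2, with 95% intervals of -1.19 to 0.53 and -0.19 to 0.73. Pik3r1 ranged over 22.5 to 34.3 CPM (median 23.8) in AL and 8.93 to 28.8 CPM (median 20.7) in IF mice. In 5 IF mice it lay below every AL mouse. The log2 fold change was -0.45 ± 0.16 (BH-adjusted p = 0.0257, edgeR QL). Without AL mouse 2 it stayed near its size and fell just short of a call (-0.41, BH-adjusted p = 0.0506, edgeR QL). Without AL mouse 2 and IF mouse 10 it was -0.31 and not called (BH-adjusted p = 0.0664, edgeR QL). Pik3r1 was also not called with the erythrocyte list (-0.28, BH-adjusted p = 0.422, edgeR QL), with the endothelial list, where the fold change was larger (-0.56, BH-adjusted p = 0.130), or with library totals alone (-0.36, BH-adjusted p = 0.105, edgeR QL).

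Both kinases were higher in IF liver of mice 1-16. Akt1 ranged over 25.5 to 47.4 CPM (median 31.8) in AL and 39.8 to 63.96 CPM (median 55.1) in IF mice. AL mouse 2, at the top of its group, was the only AL mouse that reached into the IF range, and 6 IF mice lay above it. Akt1 changed by 0.63 ± 0.11 (log2) (BH-adjusted p = 5.84e-05, edgeR QL). Akt2 ranged over 49.3 to 74.1 CPM (median 58.4) in AL and 91.7 to 119.8 CPM (median 98.996) in IF mice. Every IF mouse lay above every AL mouse. Its log2 fold change was 0.67 ± 0.10 (BH-adjusted p = 4.38e-06, edgeR QL), and the ratio of Akt1 to Akt2 per kilobase, 0.661 to 1.16 (median 0.944) in IF liver, overlapped with that of AL liver.

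Grb10 had 1.90 to 4.30 CPM (median 3.04) in AL and 3.63 to 9.48 CPM (median 4.85) in IF mice. In 5 IF mice it lay above every AL mouse. Its log2 fold change of 0.72 ± 0.22 (BH-adjusted p = 0.0105, edgeR QL) became 0.29 with the endothelial list (BH-adjusted p = 0.604, edgeR QL), 0.47 without the 5 IF libraries (BH-adjusted p = 0.225) and 0.67 with the erythrocyte list (BH-adjusted p = 0.149).

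Both FoxO factors, at the end of the pathway, were higher in IF liver. Foxo1 ranged over 8.07 to 15.4 CPM (median 14.4) in AL and 35.3 to 48.2 CPM (median 43.02) in IF mice. Every IF mouse lay above every AL mouse, and the lowest AL value was that of mouse 8, apart from its group. The log2 fold change was 1.57 ± 0.12 (BH-adjusted p = 2.17e-10, edgeR QL), and 1.49 without AL mouse 8. It stood at 1.58 with the erythrocyte list and 1.60 with the endothelial list. Foxo3 ranged over 25.2 to 37.4 CPM (median 29.5) in AL and 34.6 to 58.3 CPM (median 42.3) in IF mice, with 7 IF mice above every AL mouse. Its log2 fold change was 0.45 ± 0.13 (BH-adjusted p = 0.00724, edgeR QL), and 0.86 with the endothelial list. Per kilobase, Foxo1 over Foxo3 was 0.227 to 0.534 (median 0.410) in AL and 0.640 to 1.11 (median 0.891) in IF liver. The IF mice had more Foxo1 for each Foxo3 than any AL mouse, and the level of Foxo1 came near that of Foxo3.

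**Figure D2:**
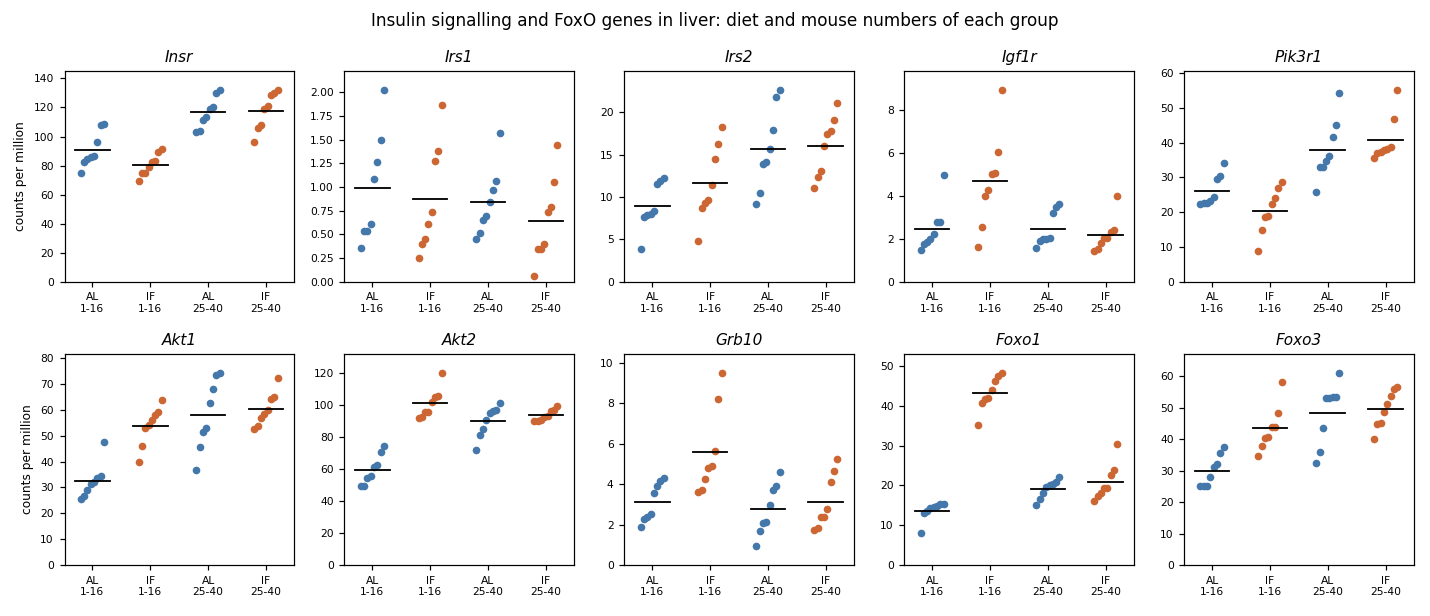
CPM of each gene in liver, 1 point per mouse, AL and IF of mice 1-16 and of mice 25-40 (8 mice per group), with the group mean. In mice 1-16 Foxo1 and Akt2 do not overlap between the diets, while each of the genes shown overlaps in mice 25-40. The share of all genes tested without overlap is not given here.

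The same question in liver of mice 25-40 gave no called gene. Foxo1 was at 15.1 to 22.03 CPM (median 19.9) in AL and 16.1 to 30.5 CPM (median 19.4) in IF mice, Akt2 at 72.1 to 101 CPM (median 92.7) in AL and 89.8 to 99.7 CPM (median 92.8) in IF mice and Insr at 103 to 132 CPM (median 116) in AL and 96.6 to 132 CPM (median 120.0) in IF mice. The diets overlapped in all 10 genes, and the share of all genes tested that overlapped is not given here. With edgeR 0 of 10 genes were called, 0 had an unadjusted p under 0.05 and DESeq2 called 0. Of all 15938 genes tested, 0 or 0% were called by edgeR, 919 had an unadjusted p under 0.05 and DESeq2 called 4. For Foxo1 the log2 fold change was 0.17 ± 0.13, with a 95% interval of -0.09 to 0.43. For Akt2 it was 0.10 ± 0.10 (-0.091 to 0.29), and for Akt1, at 36.6 to 74.2 CPM (median 57.8) in AL and 52.6 to 72.3 CPM (median 59.1) in IF mice, it was 0.09 ± 0.13 (-0.17 to 0.35).

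AL liver itself stood at different levels in the sets. Median CPM in AL mice 25-40 was 57.8 for Akt1, 92.7 for Akt2, 116 for Insr and 35.5 for Pik3r1, against 31.8, 58.4, 86.3 and 23.8 in AL mice 1-16. For Akt2 the AL level of mice 25-40 was thus nearer the IF than the AL level of mice 1-16. This difference of levels between the sets was not tested.

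Whether the diet effect differed between the sets was tested as an interaction in liver, as mice 25-40 minus mice 1-16. Of the 10 genes 5 were called, beside 23.7% of the 17658 genes tested. The effect was smaller in mice 25-40 for Foxo1, by -1.37 ± 0.18 log2 units (BH-adjusted p = 3.85e-07, edgeR QL), for Akt2 by -0.54 ± 0.13 (BH-adjusted p = 0.00219, edgeR QL) and for Akt1 by -0.51 ± 0.17 (BH-adjusted p = 0.0274, edgeR QL). For Insr (0.35 ± 0.13, BH-adjusted p = 0.0414, edgeR QL) and Pik3r1 (0.62 ± 0.21, BH-adjusted p = 0.0280, edgeR QL) the difference was positive, since these fell in mice 1-16. Igf1r was not called by edgeR QL (-0.93 ± 0.36, BH-adjusted p = 0.0571) and was called by DESeq2 (BH-adjusted p = 0.0458). Grb10 (-0.47 ± 0.37, BH-adjusted p = 0.403, edgeR QL) and Foxo3 (-0.34 ± 0.19, BH-adjusted p = 0.211, edgeR QL) were not called, so for them a different effect in the sets was not shown.

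In muscle of mice 1-16 fasting went with higher levels of both FoxO factors, both receptors and the docking protein Irs2, and no gene was called lower. Foxo1 had a log2 fold change of 0.87 ± 0.21, and Igf1r had no overlap between the diets (8 mice in each). In all, 5 of 10 genes were called, beside 23% of the 15025 genes tested, of which 1726 were higher and 1737 lower. Their median log2 fold change was 0.23 against 0.0059 over all genes tested. Markers of other cells and tissues moved with diet in these libraries. The 5 adipocyte genes, all above 1 CPM and led by Fabp4, summed to 159 to 695 CPM (median 296) in AL and 393 to 3474 CPM (median 1429) in IF muscle, none at 0. The 6 liver genes, of which only Cyp2e1 in AL and 2 genes in IF muscle were above 1 CPM, summed to 1.57 to 11.9 CPM (median 4.72) and 35.1 to 210.4 CPM (median 85.8), without overlap. The 5 fibroblast genes, led by Dcn, were lower by median, at 346 to 503 CPM (median 463) and 244 to 483 CPM (median 370.5), and overlapped. With the adipocyte list as a covariate, chosen after seeing the data, 5 genes were called, of which Insr, Igf1r, Foxo1 and Foxo3 were higher and Akt1 lower, beside 22.8% of all genes, and Irs2 was not called.

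Insr ranged over 32.5 to 45.4 CPM (median 36.8) in AL and 39.1 to 52.6 CPM (median 44.7) in IF mice. In 3 IF mice it lay above every AL mouse. IF over AL was 0.20 ± 0.068 on the log2 scale (BH-adjusted p = 0.0395, edgeR QL), a call that was lost without IF mouse 12 (0.17, BH-adjusted p = 0.0771, edgeR QL), without IF mouse 16 (0.20, BH-adjusted p = 0.0501), with the replicate number as a block (0.20, BH-adjusted p = 0.0702) and with all genes of at least 1 count tested (0.20, BH-adjusted p = 0.0637, edgeR QL). Igf1r ranged over 5.93 to 7.83 CPM (median 6.97) in AL and 8.18 to 11.4 CPM (median 9.90) in IF mice. Every IF mouse lay above every AL mouse. Its log2 fold change was 0.43 ± 0.092 (BH-adjusted p = 0.00167, edgeR QL).

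Among docking proteins of muscle, Irs1 stood at 5.70 to 16.7 CPM (median 8.82) in AL and 8.77 to 16.1 CPM (median 11.8) in IF mice with no IF mouse above every AL mouse, and was not called (0.12 ± 0.19, BH-adjusted p = 0.698, edgeR QL). Irs2 ranged over 8.26 to 17.9 CPM (median 12.6) in AL and 14.4 to 38.5 CPM (median 20.03) in IF mice. In 5 IF mice it lay above every AL mouse, mouse 12 farthest. Irs2 changed by 0.69 ± 0.17 (log2) (BH-adjusted p = 0.00884, edgeR QL), 0.53 without mouse 12, and 0.62 with the adipocyte list, where it was not called (BH-adjusted p = 0.0618, edgeR QL). Pik3r1 had 12.9 to 21.97 CPM (median 16.6) in AL and 13.3 to 26.4 CPM (median 22.5) in IF mice. Although 4 IF mice lay above every AL mouse, it was not called (0.26 ± 0.12, BH-adjusted p = 0.116, edgeR QL).

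Of the kinases in muscle of mice 1-16, Akt1 had 54.3 to 71.8 CPM (median 61.1) in AL and 48.9 to 66.8 CPM (median 57.2) in IF mice, and 2 IF mice lay below every AL mouse. Its log2 fold change of -0.20 ± 0.075 was not called (BH-adjusted p = 0.0566, edgeR QL), and was called without AL mouse 2 and IF mouse 10 (-0.26, BH-adjusted p = 0.0207, edgeR QL), without IF mouse 12 (-0.22, BH-adjusted p = 0.0458) and with the adipocyte list (-0.27, BH-adjusted p = 0.0425, edgeR QL). Akt2, the more abundant of these kinases by length, had 284 to 310.1 CPM (median 298) in AL and 272 to 331 CPM (median 314) in IF mice. Its log2 fold change was -0.016 ± 0.05, and 0.056 with library totals alone, so its direction turned. Grb10 had 14.7 to 21.1 CPM (median 17.4) in AL and 15.8 to 22.2 CPM (median 19.7) in IF mice, at a log2 fold change of 0.075 ± 0.083 and a 95% interval of -0.088 to 0.24.

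Of the FoxO factors in muscle of mice 1-16, Foxo1 ranged over 7.40 to 10.8 CPM (median 8.24) in AL and 10.1 to 36.8 CPM (median 15.02) in IF mice. In 7 IF mice it lay above every AL mouse, and mouse 16 stood far above the rest of its group. The log2 fold change was 0.87 ± 0.21 (BH-adjusted p = 0.00806, edgeR QL), and 0.60 without mouse 16 (BH-adjusted p = 0.000310, edgeR QL). Foxo3 ranged over 11.3 to 14.5 CPM (median 12.5) in AL and 13.9 to 22.9 CPM (median 17.2) in IF mice, again with 7 IF mice above every AL mouse. Foxo3 changed by 0.43 ± 0.086 (log2) (BH-adjusted p = 0.00106, edgeR QL). Per kilobase, Foxo1 over Foxo3 was 0.507 to 0.720 (median 0.577) in AL and 0.623 to 1.40 (median 0.718) in IF muscle, ranges that overlapped.

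**Figure D3:**
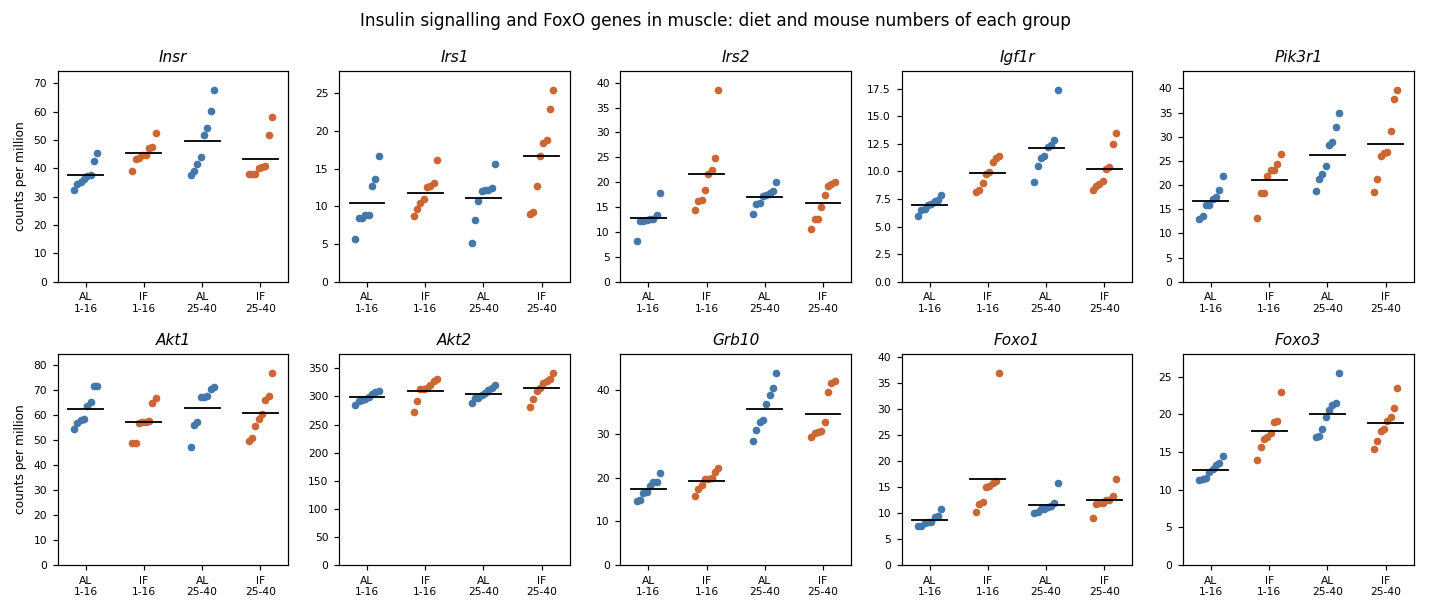
CPM of each gene in muscle, 1 point per mouse, AL and IF of mice 1-16 and of mice 25-40 (8 mice per group), with the group mean. In mice 1-16 Igf1r does not overlap between the diets, and the Foxo1 value of IF mouse 16, 36.8 CPM, stands apart.

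Muscle of mice 25-40 showed no called gene. Foxo1 had 10.03 to 15.7 CPM (median 11.02) in AL and 9.01 to 16.6 CPM (median 12.2) in IF mice, Igf1r 9.07 to 17.4 CPM (median 11.8) in AL and 8.36 to 13.5 CPM (median 9.69) in IF mice and Irs2 13.7 to 19.97 CPM (median 17.3) in AL and 10.6 to 20.1 CPM (median 16.2) in IF mice. All of these overlapped between the diets. With edgeR 0 of 10 genes were called, beside 0.00653% of the 15308 genes tested, which is 1 gene, and 1644 genes had an unadjusted p under 0.05. DESeq2 called 0 of the 10 and 81 genes in all. Irs1 and Akt2 had an unadjusted p under 0.05. Irs1 had 5.20 to 15.7 CPM (median 12.1) in AL and 8.99 to 25.4 CPM (median 17.6) in IF mice, with 5 IF mice above every AL mouse and a log2 fold change of 0.66 ± 0.24 (BH-adjusted p = 0.372, edgeR QL). Akt2 had 288 to 321 CPM (median 304) in AL and 282 to 341 CPM (median 319.8) in IF mice, at a log2 fold change of 0.12 ± 0.059 (BH-adjusted p = 0.464, edgeR QL).

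The interaction of mouse set and diet in muscle called 3 of the 10 genes, beside 14.2% of the 16346 genes tested. The diet effect was smaller in mice 25-40 for Irs2 (-0.68 ± 0.22, BH-adjusted p = 0.0344, edgeR QL), Igf1r (-0.59 ± 0.15, BH-adjusted p = 0.00589, edgeR QL) and Foxo3 (-0.43 ± 0.12, BH-adjusted p = 0.0128, edgeR QL). Foxo1 was not called by edgeR QL (-0.67 ± 0.24, BH-adjusted p = 0.0571) and was called by DESeq2 (BH-adjusted p = 0.0282). Insr was not called (-0.30 ± 0.14, BH-adjusted p = 0.135, edgeR QL).

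In cortex none of the genes passed the test in either mouse set. In mice 1-16 Foxo1 had 11.4 to 26.2 CPM (median 17.01) in AL and 14.8 to 31.8 CPM (median 21.8) in IF mice, with 3 IF mice above every AL mouse, and a log2 fold change of 0.36 ± 0.20 (BH-adjusted p = 0.288, edgeR QL). Akt2 had 109.8 to 161 CPM (median 131) in AL and 132 to 161 CPM (median 143) in IF mice, at a log2 fold change of 0.13 ± 0.079 and a 95% interval of -0.022 to 0.29. Akt1, the more abundant kinase here by length, had 200.4 to 238 CPM (median 216) in AL and 202 to 257 CPM (median 226) in IF mice, and Igf1r 35.1 to 54.6 CPM (median 46.5) in AL and 40.1 to 54.5 CPM (median 46.3) in IF mice. All these groups overlapped. With edgeR 0 of 10 genes were called in mice 1-16, beside 7.21% of the 18462 genes tested, and 0 of the 10 had an unadjusted p under 0.05 against 4400 of all genes. DESeq2 called 0 of the 10 and 2174 genes in all.

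In cortex of mice 25-40 edgeR called 0 of 10 genes, beside 0.0109% of the 18403 genes tested, or 2 genes, and 2069 genes had an unadjusted p under 0.05. DESeq2 called 0 of the 10 and 64 genes in all. Igf1r, with 32.8 to 41.6 CPM (median 35.9) in AL and 34.8 to 48.9 CPM (median 42.1) in IF mice, was the one with an unadjusted p under 0.05. In 4 IF mice it lay above every AL mouse, at a log2 fold change of 0.18 ± 0.061 (BH-adjusted p = 0.355, edgeR QL). The interaction of mouse set and diet in cortex called 0 of 10 genes with edgeR, beside 2.03% of 19547, and 0 with DESeq2, and 1 gene, Foxo3 (-0.26 ± 0.11), had an unadjusted p under 0.05.

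Other markers also moved in cortex of mice 1-16. The 6 glial genes, all above 1 CPM and led by Mbp, summed to 3733 to 5700.3 CPM (median 4594) in AL and 4928 to 8099 CPM (median 6493) in IF mice, none at 0. Ttr, a liver marker that the choroid plexus also makes, was above 500 CPM in AL mice 2 and 4 and IF mice 11, 14, 34 and 36. With the glial list as a covariate or without these libraries, both chosen after seeing the data, edgeR called 0 of the 10 genes in either set. Of all genes 2.17% and 0.411% were called in these fits of mice 1-16, and 0.0598% and 0.00537% in those of mice 25-40.

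The diet effect was compared between tissues with a test of the difference. The same mice give the libraries of each tissue, and the main fit treated these libraries as independent. With the mouse as a block, each of the 10 genes kept its direction and side of the threshold in both mouse sets. In mice 1-16 liver differed from muscle in 6 of the 10 genes, beside 33.7% of the 21608 genes tested. The effect was larger in liver for Akt1 (0.79 ± 0.12, BH-adjusted p = 8.32e-07, edgeR QL), Akt2 (0.65 ± 0.10, BH-adjusted p = 2.37e-06, edgeR QL), Grb10 (0.60 ± 0.20, BH-adjusted p = 0.0171, edgeR QL) and Foxo1 (0.66 ± 0.25, BH-adjusted p = 0.0370, edgeR QL). It was lower in liver for Insr (-0.50 ± 0.10, BH-adjusted p = 9.56e-05, edgeR QL), which fell in liver and rose in muscle, and for Pik3r1 (-0.75 ± 0.19, BH-adjusted p = 0.00146, edgeR QL). Igf1r was called in both tissues, and its difference was 0.33 ± 0.25 (BH-adjusted p = 0.331, edgeR QL). Irs2, called in muscle and not in liver, had a difference of -0.45 ± 0.29 (BH-adjusted p = 0.236, edgeR QL), which does not show that the tissues differ.

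Against cortex, liver of mice 1-16 also differed in 6 of the 10 genes, beside 30.1% of the genes tested. Foxo1 (1.18 ± 0.25, BH-adjusted p = 0.000291, edgeR QL), Igf1r (0.75 ± 0.25, BH-adjusted p = 0.0180, edgeR QL), Grb10 (0.70 ± 0.20, BH-adjusted p = 0.00696, edgeR QL), Akt1 (0.52 ± 0.12, BH-adjusted p = 0.000780, edgeR QL) and Akt2 (0.51 ± 0.11, BH-adjusted p = 0.000181, edgeR QL) had the larger effect in liver. Pik3r1 had the lower one (-0.51 ± 0.19, BH-adjusted p = 0.0358, edgeR QL). With library totals alone, which moved the median of all genes by 0.14 here, Pik3r1 was not called (BH-adjusted p = 0.165) and Foxo3 was (0.42, BH-adjusted p = 0.0201, edgeR QL). In mice 25-40 edgeR called 0 of 10 genes for liver minus muscle, beside 0.0611% of 21292, and 0 of 10 for liver minus cortex, beside 0.0564%. Under an unadjusted p of 0.05 there were 1 gene, Irs1, for the first and 0 for the second, and DESeq2 was not run on these contrasts.

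**Figure D4:**
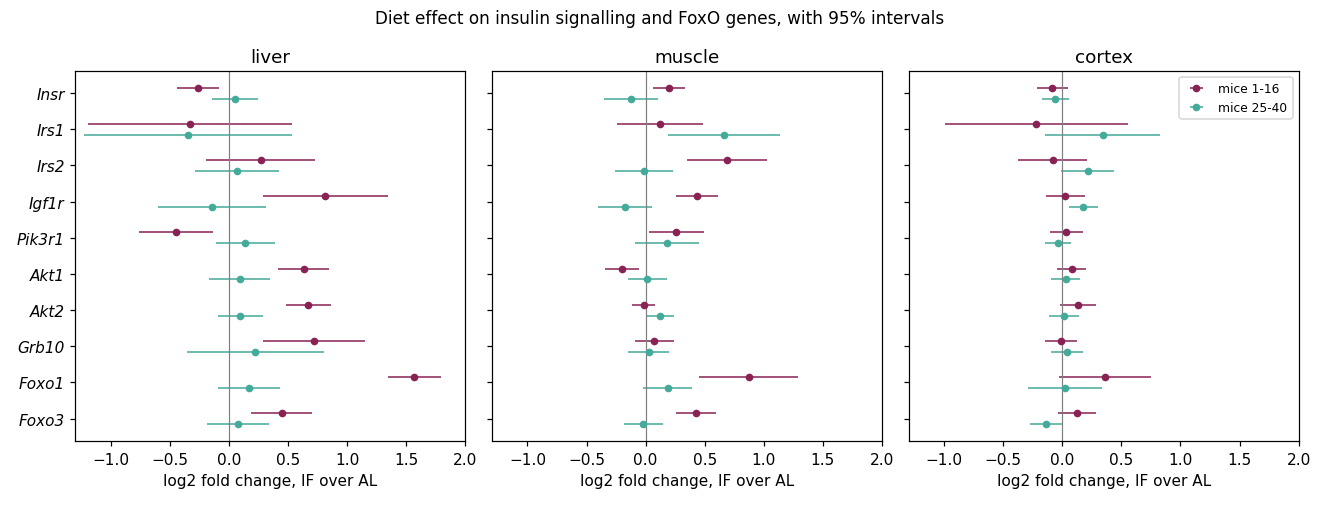
Log2 fold change of each gene, IF over AL, in liver, muscle and cortex of mice 1-16 and of mice 25-40, with 95% intervals from the edgeR fit. Foxo1 in liver of mice 1-16 lies at 1.57, with an interval from 1.34 to 1.80, and at 0.17 in mice 25-40.

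Ratios between related genes, per kilobase of gene length, also varied with tissue and diet. Insr over Igf1r was 26.5 to 71.8 (median 50.1) in AL and 10.2 to 52.7 (median 21.5) in IF liver of mice 1-16, 5.65 to 8.53 (median 6.30) in AL muscle and 0.734 to 1.08 (median 0.832) in AL cortex. Insr thus exceeded Igf1r by length in every AL liver and muscle of the set, and the IF livers reached lower than any AL liver. Irs1 over Irs2 was 0.311 to 1.14 (median 0.494) in AL muscle, 0.0215 to 0.197 (median 0.0768) in AL liver and 0.00525 to 0.0230 (median 0.0111) in AL cortex. Muscle was the tissue in which the docking proteins came nearest to each other.

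The rest of the pathway was read from a list of 49 further genes. In liver of mice 1-16, 14 of 46 tested were higher and 9 lower, with a median log2 fold change of 0.18 against 0.06 over all genes, of which 44.6% were called. By part, 5 of 12 inhibitors and phosphatases were higher and 1 lower, 3 of 7 PI3K subunits higher and 1 lower, and 2 of 6 kinases and substrates higher and 2 lower. Of 12 genes of the mTOR complexes 2 were higher and 3 lower, of 8 receptors and docking proteins 1 higher and 2 lower, and Foxo4 was higher. With the erythrocyte list as covariate the counts were 6 higher and 3 lower (median 0.13), beside 24.7% of all genes called. With the endothelial list they were 4 higher and 4 lower (median 0.047), beside 25.3%. Library totals alone gave 15 higher and 5 lower in liver (median 0.26), beside 43.8%. In muscle of mice 1-16, 6 of 46 tested were higher and 17 lower, beside 23% of all genes called. Their median was -0.11 against 0.0059 over all genes. Both remaining FoxO factors, Foxo4 and Foxo6, were lower there. With the adipocyte list the muscle counts were 5 higher and 11 lower (median -0.13), beside 22.8%. Library totals alone gave 6 higher and 11 lower in muscle (median -0.036), beside 24.1%. In mice 25-40 edgeR called 0 of the 47 tested in each tissue. An unadjusted p was under 0.05 for 3 in liver, 2 in muscle and 5 in cortex, beside 5.77%, 10.7% and 11.2% of all genes. In cortex of mice 1-16 4 of 49 were higher and 1 lower, beside 7.21% of all genes called.

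Genes of these lists named for liver and muscle were chosen after their values were seen. Trib3, a pseudokinase that binds AKT, had 4.04 to 9.80 CPM (median 6.71) in AL and 13.3 to 22.2 CPM (median 15.1) in IF liver of mice 1-16. The diets did not overlap, and the log2 fold change was 1.15 ± 0.16 (BH-adjusted p = 2.57e-06, edgeR QL). Gsk3a, a kinase that AKT phosphorylates, had 25.8 to 35.7 CPM (median 31.2) in AL and 13.9 to 25.4 CPM (median 20.3) in IF liver, without overlap, and a log2 fold change of -0.77 ± 0.11 (BH-adjusted p = 3.79e-06, edgeR QL). In muscle, the docking protein Gab1 had 11.4 to 13.8 CPM (median 13.1) in AL and 20.9 to 25.7 CPM (median 22.3) in IF mice. No mouse overlapped, and the log2 fold change was 0.74 ± 0.066 (BH-adjusted p = 1.40e-07, edgeR QL). Foxo6, a further FoxO factor, had 6.75 to 15.1 CPM (median 11.3) in AL and 3.36 to 9.02 CPM (median 6.02) in IF muscle, which overlapped, with a log2 fold change of -0.91 ± 0.21 (BH-adjusted p = 0.00451, edgeR QL). Of the PI3K subunits that were higher in liver, Pik3cg (1.05 ± 0.42) lost its call under 7 alternatives, with log2 fold changes from 0.64 to 1.23 and BH-adjusted p from 0.0509 with RLE size factors to 0.494 with the endothelial list (edgeR QL). The phosphatase Phlpp2 was not called in liver with the endothelial list (0.47 against 0.96 ± 0.22, BH-adjusted p = 0.296, edgeR QL), nor were the inhibitors Socs1 (-1.82 against -2.74 ± 0.63, BH-adjusted p = 0.140) and Socs3 (-0.95 against -1.21 ± 0.29, BH-adjusted p = 0.0941) in muscle with the adipocyte list (edgeR QL).

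Target genes of FoxO factors, 20 in the list, were called in both directions in liver and higher in muscle. In liver of mice 1-16, 10 of 19 tested were higher and 4 lower (median 0.44, all genes 0.06), beside 44.6% of all genes called, and in muscle 13 of 18 were higher and 0 lower (median 0.65, all genes 0.0059), beside 23%. With the erythrocyte list the liver counts were 6 higher and 3 lower (median 0.397), beside 24.7% of all genes called. With the endothelial list they were 6 higher and 4 lower (median 0.399), beside 25.3%. Both medians stayed near the 0.44 of the fit without a covariate. With the adipocyte list the muscle counts were 13 higher and 0 lower (median 0.66), beside 22.8%. Igfbp1, a binding protein of insulin-like growth factors, had 1.25 to 25.98 CPM (median 8.74) in AL and 40.2 to 173 CPM (median 91.6) in IF liver, without overlap, and a log2 fold change of 3.23 ± 0.51 (BH-adjusted p = 0.000121, edgeR QL). Pdk4, which restrains the use of pyruvate, had 112 to 330.4 CPM (median 213) in AL and 776 to 1719 CPM (median 1386) in IF muscle. No mouse overlapped, and the log2 fold change was 2.58 ± 0.23 (BH-adjusted p = 1.99e-06, edgeR QL). Fbxo32, a ubiquitin ligase of muscle protein breakdown, had 185 to 359 CPM (median 243) in AL and 389 to 765 CPM (median 628) in IF muscle, and 1.23 ± 0.16 (BH-adjusted p = 4.82e-05, edgeR QL). Gadd45a, a stress gene of the list, was lower in liver (-1.31 ± 0.25, BH-adjusted p = 0.000186, edgeR QL) and not called with the erythrocyte list (-0.83, 0.0815 as BH-adjusted p, edgeR QL).

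Genes that insulin induces in liver, 10 in the list, were called in opposite directions in liver and muscle of mice 1-16. In liver 8 of 10 were lower and 0 higher (median -1.14), beside 44.6% of all genes called, and in muscle 6 of 9 tested were higher and 0 lower (median 2.003), beside 23%. The test of liver minus muscle called 8 of 10 lower and 0 higher, beside 33.7% of all genes. With the erythrocyte list the liver counts were 0 higher and 2 lower (median -1.03), beside 24.7% of all genes called. With the endothelial list they were 0 higher and 3 lower (median -1.04), beside 25.3%. Both medians stayed near the -1.14 of the fit without a covariate. With the adipocyte list the muscle counts were 3 higher and 1 lower (median 0.99), beside 22.8%. Fasn, the fatty acid synthase, had 364 to 1499 CPM (median 563) in AL and 131 to 199 CPM (median 161) in IF liver, without overlap, and a log2 fold change of -2.18 ± 0.25 (BH-adjusted p = 7.78e-07, edgeR QL). In muscle it had 12.8 to 77.99 CPM (median 22.5) and 44.4 to 1428 CPM (median 169), and 3.74 ± 0.77 (BH-adjusted p = 0.00312, edgeR QL), which was 1.91 with the adipocyte list. The part of adipocytes in these changes was not tested beyond this covariate. Pnpla3 in liver was not called with the erythrocyte list (-2.01, BH-adjusted p = 0.200) or the endothelial list (-1.72, BH-adjusted p = 0.307, edgeR QL). In mice 25-40 edgeR called 0 genes of both lists in every tissue. For the FoxO targets 0, 3 and 2 genes of liver, muscle and cortex had an unadjusted p under 0.05, and for the insulin-induced genes 2, 1 and 0. Of all genes tested, 5.77%, 10.7% and 11.2% did in these tissues.

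In cortex of mice 1-16, 2 of 16 FoxO target genes tested were higher, Txnip and Klf15, and 1 of 9 insulin-induced genes, beside 7.21% of all genes called. Txnip, an inhibitor of thioredoxin that responds to glucose, had 11.8 to 15.03 CPM (median 12.5) in AL and 18.02 to 33.3 CPM (median 28.1) in IF mice. The diets did not overlap, and the log2 fold change was 1.08 ± 0.11 (BH-adjusted p = 3.77e-05, edgeR QL). Klf15, a zinc finger factor, had 17.2 to 25.3 CPM (median 18.5) and 23.6 to 36.2 CPM (median 26.997), a log2 fold change of 0.50 ± 0.10 (BH-adjusted p = 0.00704, edgeR QL), and was called neither with the left-out library kept in (0.42, BH-adjusted p = 0.0510) nor without the libraries with Ttr (0.40, BH-adjusted p = 0.139, edgeR QL). Of the rest of the pathway, Inppl1 (0.31 ± 0.092), Mlst8 (0.42 ± 0.10), Tsc1 (0.39 ± 0.084) and Foxo4 (0.26 ± 0.076) were higher and Rheb (-0.22 ± 0.056) lower in log2 fold change, and Pnpla3 (0.61 ± 0.17), an insulin-induced gene, was higher. Each of these 6 calls depended on the fit. Without the cortex libraries with Ttr none was called, at log2 fold changes of 0.22 for Inppl1, 0.34 for Mlst8, 0.34 for Tsc1, 0.20 for Foxo4, -0.21 for Rheb and 0.56 for Pnpla3 and BH-adjusted p from 0.160 for Tsc1 to 0.340 for Foxo4 (edgeR QL). With the glial list none was called either, with BH-adjusted p from 0.0528 for Mlst8 to 0.110 for Inppl1 (edgeR QL). Their log2 fold changes stayed near their size in this fit, at 0.31 for Inppl1, 0.45 for Mlst8 and 0.34 for Tsc1. Foxo4 was at 0.29, Rheb at -0.20 and Pnpla3 at 0.60. With the replicate number as a block, without AL mouse 2 and IF mouse 10, or with the left-out library kept in, Tsc1 was the one of the 6 still called. The fold changes of the rest stayed near their size with the block, at 0.30 for Inppl1, 0.45 for Mlst8 and 0.26 for Foxo4. Rheb was at -0.22 and Pnpla3 at 0.61 there. Without these mice Inppl1 was at 0.20. With the left-out library Inppl1 was at 0.22, Mlst8 at 0.33 and Pnpla3 at 0.46. Inppl1 (0.29) and Foxo4 (0.24) were also not called with library totals alone, and Foxo4 (0.26) with all genes of at least 1 count tested.

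As a description with no test, the 3 genes most like a member were sought by Pearson correlation of log2 CPM over 95 libraries, after the mean of each tissue and mouse set was taken off, among 10684 genes. Those for Foxo1 were Wbp1l (0.767), Ipo5 (0.749) and Ncl (0.744), and for Foxo3 Maco1 (0.747), Per3 (0.675) and BC005537 (0.659). For Akt2 they were Retreg2 (0.832), Spg7 (0.829) and Fbxo31 (0.824), for Akt1 E130309D02Rik (0.718), Efhd2 (0.717) and Fam102a (0.695), and for Insr Fbxo3 (0.727), Rab14 (0.714) and Abhd18 (0.700). For Igf1r they were Fam120b (0.756), Kat7 (0.754) and Dync1li2 (0.727), and for Irs2 Tcp11l2 (0.561), Nadk (0.560) and Fbxo21 (0.551). Irs1 was below the mean of 1 CPM asked of a gene in every tissue. The points share libraries, depth and diet.

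On GRCm39, as the count table gives it, Foxo1 (ENSMUSG00000044167, chr3:52175757-52260642 on the plus strand) and Foxo3 (ENSMUSG00000048756, chr10:42057837-42152751 on the minus strand) are on different chromosomes, as are Akt1 (ENSMUSG00000001729, chr12:112620255-112641318 on the minus strand) and Akt2 (ENSMUSG00000004056, chr7:27290977-27340251 on the plus strand). Insr (ENSMUSG00000005534, chr8:3172061-3329617 on the minus strand) and Irs2 (ENSMUSG00000038894, chr8:11034681-11058458 on the minus strand) are both on chromosome 8. Annotated genes that overlap a member had mean levels of at most 0.597 CPM over the 95 libraries of all tissues together. Their means in single tissues are not given here.

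Promoters were looked up for all 10 genes, from RefSeq on GRCm38.p6, from 250 bases before to 50 after each start. Of the 10 genes 9 matched, with 15 promoters of 300 bases. Insr had no entry. The motifs searched on both strands were the forkhead motif GTAAACA, the E-box CACGTG and the CRE by its name, and 3.65%, 7.15% and 1.79% of all 32851 promoters hold them. The E-box was in the promoters of Irs1 and Irs2, the forkhead motif in 1 promoter of Akt1, and the CRE in none. The promoters given in full are those of Foxo1 and Foxo3, which rose in liver and muscle of mice 1-16, and those of Irs2 and Akt1, which hold a motif, in capitals. The reverse strand of the forkhead motif reads TGTTTAC. The GC content was 61.3% for Foxo1, 75% for Foxo3, 72% for Irs2 and 52.3% for the Akt1 promoter shown, beside a median of 52.7% over all promoters. A match is a description of letters and no sign of binding.
Foxo1 chr3:52268087-52268386 plus strand: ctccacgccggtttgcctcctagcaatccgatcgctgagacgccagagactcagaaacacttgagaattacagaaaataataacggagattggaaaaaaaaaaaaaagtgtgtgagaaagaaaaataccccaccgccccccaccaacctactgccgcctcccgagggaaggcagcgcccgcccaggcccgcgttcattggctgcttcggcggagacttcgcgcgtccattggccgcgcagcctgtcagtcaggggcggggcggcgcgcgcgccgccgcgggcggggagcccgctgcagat
Foxo3 chr10:42276646-42276945 minus strand: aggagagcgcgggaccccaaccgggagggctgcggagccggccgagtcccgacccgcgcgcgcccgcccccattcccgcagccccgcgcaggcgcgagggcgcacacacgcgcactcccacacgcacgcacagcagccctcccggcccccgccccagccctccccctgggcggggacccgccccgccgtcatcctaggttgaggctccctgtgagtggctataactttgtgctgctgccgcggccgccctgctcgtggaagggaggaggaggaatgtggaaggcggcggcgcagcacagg
Irs2 chr8:11008880-11009179 minus strand: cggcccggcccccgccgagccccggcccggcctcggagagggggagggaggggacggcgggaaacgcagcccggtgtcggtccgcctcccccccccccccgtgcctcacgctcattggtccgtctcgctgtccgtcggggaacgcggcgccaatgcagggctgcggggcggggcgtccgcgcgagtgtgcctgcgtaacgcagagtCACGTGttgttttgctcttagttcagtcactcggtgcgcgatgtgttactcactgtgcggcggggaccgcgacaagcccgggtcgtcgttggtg
Akt1 chr12:112674835-112675134 minus strand: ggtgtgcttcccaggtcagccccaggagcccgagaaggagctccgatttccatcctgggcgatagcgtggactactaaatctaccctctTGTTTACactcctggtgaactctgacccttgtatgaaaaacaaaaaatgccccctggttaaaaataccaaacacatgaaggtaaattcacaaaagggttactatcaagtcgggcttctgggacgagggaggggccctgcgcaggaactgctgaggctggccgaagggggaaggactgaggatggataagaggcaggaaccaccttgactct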

How the data were processed

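The deposited table holds raw counts that the authors made by aligning reads to GRCm39 with Hisat2 and assigning them to genes with featureCounts, with no normalization, and the strand setting of the counting is not stated. Libraries were grouped by the tissue, diet and mouse number of the labels, and the cortex library of AL mouse 1 was left out. Each tissue and mouse set was fitted alone with edgeR 4.0.16 in R 4.3.3: TMM factors, the expression filter with minimum count 10 and minimum total count 15, dispersions and quasi-likelihood fits with robust settings, the quasi-likelihood test, and Benjamini-Hochberg adjustment over all genes tested, threshold 0.05. Errors of log2 fold changes are standard errors from that test, and intervals are 1.96 of them to each side. Differences between mouse sets were tested as the interaction in 1 fit per tissue, differences between tissues in 1 fit per mouse set over all tissues.

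The 10 genes (members) and the lists were chosen with earlier results of these data known. The named genes of other lists were to be up to 3 per direction with the largest mean log2 fold change over the sets, among those with an adjusted p under 0.05 and the same sign in both mouse sets in liver and muscle, or past the threshold in either set in cortex, which named none in liver and muscle. Alternatives were RLE size factors, DESeq2 1.42.0, a filter of at least 1 count, the replicate number or the mouse as a block, an erythrocyte covariate, leaving out AL mouse 2 with IF mouse 10, and keeping the cortex library of AL mouse 1. Chosen after seeing the data were endothelial, adipocyte and glial covariates, library totals alone, and leaving out single mice or the libraries rich in erythrocyte genes or Ttr. Replicate numbers name different AL and IF animals. Correlations between libraries were taken on the deviations of genes from their group means, not on whole libraries. For libraries that share a number within a tissue and set they were -0.26 to 0.45. The highest was in muscle of mice 25-40, and in the other tissues and sets they were at most 0.21. For libraries of 1 mouse from different tissues they were -0.127 to 0.149. The genes most like Pik3r1 and Grb10 are not reported here. Read totals set the counting error only. Python 3.11.15 and matplotlib 3.10.9 were used for the figures.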

Additional observations from a re-analysis of the deposited data

Results flagged for a closer look

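Of 120 sets of values (10 genes in each of 12 groups of libraries, so each library counts 10 times), 13 held 1 library far from the others by the Dixon criterion at the 95% level, where chance gives about 1 in 20 groups. Insr in cortex of AL mouse 25 was 37.2 CPM, beside 26.7 to 31.3 CPM in the other mice of its group. Insr in cortex of IF mouse 33 was 35.9 CPM, beside 26.5 to 29.7 CPM in the other mice of its group. Irs1 in cortex of AL mouse 8 was 1.90 CPM, beside 0.318 to 0.910 CPM in the other mice of its group. Irs2 in muscle of IF mouse 12 was 38.5 CPM, beside 14.4 to 24.9 CPM in the other mice of its group. Igf1r in liver of AL mouse 2 was 4.98 CPM, beside 1.47 to 2.80 CPM in the other mice of its group. Igf1r in liver of IF mouse 37 was 4.01 CPM, beside 1.46 to 2.42 CPM in the other mice of its group. Igf1r in muscle of AL mouse 28 was 17.4 CPM, beside 9.07 to 12.9 CPM in the other mice of its group. Pik3r1 in cortex of AL mouse 25 was 94.8 CPM, beside 79.4 to 86.7 CPM in the other mice of its group. Akt1 in liver of AL mouse 2 was 47.4 CPM, beside 25.5 to 34.4 CPM in the other mice of its group. Foxo1 in cortex of AL mouse 26 was 19.2 CPM, beside 10.5 to 14.4 CPM in the other mice of its group. Foxo1 in liver of AL mouse 8 was 8.07 CPM, beside 13.05 to 15.4 CPM in the other mice of its group. Foxo1 in muscle of IF mouse 16 was 36.8 CPM, beside 10.1 to 16.2 CPM in the other mice of its group. Foxo1 in muscle of AL mouse 28 was 15.7 CPM, beside 10.03 to 11.9 CPM in the other mice of its group. 

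The diet effect differed between groups, by a test of the difference itself, in 20 of 70 comparisons of a member. Of all genes tested, 23.7%, 14.2% and 2.03% were called between mouse sets in liver, muscle and cortex. For liver minus muscle and liver minus cortex these shares were 33.7% and 30.1% in mice 1-16, and 0.0611% and 0.0564% in mice 25-40. In liver the effect of mice 25-40 minus that of mice 1-16 was 0.35 for Insr, 0.62 for Pik3r1, -0.51 for Akt1, -0.54 for Akt2 and -1.37 for Foxo1 on the log2 scale. In muscle it was -0.68 for Irs2, -0.59 for Igf1r and -0.43 for Foxo3. In mice 1-16 the effect in liver minus that in muscle was -0.50 for Insr, -0.75 for Pik3r1, 0.79 for Akt1, 0.65 for Akt2, 0.60 for Grb10 and 0.66 for Foxo1. The effect in liver minus that in cortex was 0.75 for Igf1r, -0.51 for Pik3r1, 0.52 for Akt1, 0.51 for Akt2, 0.70 for Grb10 and 1.18 for Foxo1. Sex and mouse set cannot be told apart.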

How the results depend on the processing

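Of 530 member values of the diet effect under an alternative, 20 kept their direction and were no longer called, 3 kept it and were newly called, 14 reversed, and the others kept their direction and side of the threshold; between tissues these were 1, 1 and 5 of 120, between mouse sets 0, 2 and 0 of 60, and for AL levels 4, 4 and 6 of 180, where Foxo1 lost its call in 2 of the 6 that reversed and Foxo3 gained one in 1. In liver of mice 1-16 the called genes were 3995 with the erythrocyte covariate and 4093 with the endothelial one, with 4 and 4 members called, and 5 without the IF libraries rich in erythrocyte RNA. DESeq2 called 4 genes in liver, 81 in muscle and 64 in cortex of mice 25-40, 2174 in cortex of mice 1-16, and 706 for the set difference in cortex. In muscle of mice 25-40, 5 were called with a filter of at least 1 count. In cortex of mice 1-16, 382 were called with the replicate block, 498 without AL mouse 2 and IF mouse 10, 294 with the left-out library kept in, 400 with the glial covariate and 76 without the libraries with Ttr. In cortex of mice 25-40 the count was 0 with library totals, 0 with the replicate block, 0 with the erythrocyte covariate, 11 with the glial covariate and 1 without the Ttr libraries. For liver minus muscle in mice 25-40 the mouse block gave 1, and for liver minus cortex RLE gave 28 and the mouse block 0.

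Log2 fold changes that reversed with library totals alone were Akt2 (0.056) in muscle of mice 1-16; Akt1 (-0.055) and Grb10 (-0.044) in muscle of mice 25-40; Foxo3 (0.039) liver minus muscle and Irs1 (0.046) liver minus cortex in mice 1-16; Akt2 (0.0073) and Foxo1 (0.017) liver minus muscle in mice 25-40; and, for AL levels, Foxo1 (-0.36) liver against cortex and Grb10 (-0.54) muscle against cortex in mice 1-16, and Irs1 (-0.0010) and Foxo3 (-0.41) liver against cortex and Foxo1 (-0.15) muscle against cortex in mice 25-40. Others that reversed were Insr (-0.0090) in liver of mice 25-40 with the endothelial covariate, Irs2 (0.0069) with the erythrocyte and Grb10 (-0.0049) with the adipocyte covariate in muscle of mice 25-40, Irs1 (0.027), Igf1r (-0.019), Pik3r1 (-0.019) and Grb10 (0.018) with the glial covariate in cortex of mice 1-16, and Akt2 (-0.0074) with it, Foxo1 (-0.0070) with the replicate block, and Pik3r1 (0.0069) and Foxo1 (-0.19) without the Ttr libraries in cortex of mice 25-40, besides Foxo3 (0.014) liver minus muscle with RLE in mice 1-16 and Foxo1 (0.040) muscle against cortex in AL mice 1-16 with the mouse block. The cause was not tested. For Irs1, low in liver and cortex, counting error and the spread between mice were not separated. The share of called genes that were higher moved from 49.8% to 70.4% with library totals in muscle of mice 1-16, from 52% to 65.9% for liver minus cortex there, and from 50% to 60.7% with RLE for liver minus cortex in mice 25-40. For AL levels it moved from 44.6% to 29.4% and 43.8% to 31.6% for liver against cortex, and from 42.6% to 22.4% and 43.6% to 24.3% for muscle against cortex.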
